A study of Mus musculus with 12 samples.

Results

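The 9 hepatocyte transporter genes that move bile salts, sterols and organic anions across the liver cell membrane were followed in the livers of Mdr2-knockout mice: the uptake carriers Slc10a1, Slco1a1, Slco1b2 and Slc22a7, the export pumps Abcb11, Abcc2, Abcg5 and Abcg8 of the bile canaliculus, and the export pump Abcc3 of the blood-facing membrane. All probe sets of the array that carry 1 of these symbols alone were taken, which gave 15 of the 22690 probe sets and 9 of the 12393 gene symbols. Of these 15, 13 passed a filter on dim signals and were tested. Both that did not pass belong to Slco1b2.

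The samples were livers of 12 male mice on Affymetrix MOE430A arrays, 1 array per mouse and 3 mice in each of 4 groups. KO_3M and Het_3M are Mdr2-knockout (homozygous) and heterozygous mice aged 3 months, and KO_12M and Het_12M are knockout and heterozygous mice aged 12 months. Mdr2 is an earlier name of Abcb4, and the heterozygous controls carry a knockout allele too, so no liver here is wild type. The mice of the 4 groups are separate animals. No treatment is named in the labels, and the mouse strain is not given in the sources used here.

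Bile forms when hepatocytes take up bile salts and other anions from sinusoidal blood and pump them, with phospholipid and cholesterol, into the canaliculus. Abcb4 is the pump that supplies the phospholipid, which shields the bile ducts from the detergent action of bile salts, and mice without it develop bile duct injury, inflammation and later liver tumours. Uptake carriers and export pumps are known to be controlled by nuclear receptors, among them the bile acid receptor Nr1h4 (FXR) and its target, the repressor Nr0b2 (SHP).

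Start region windows of 300 bases, 250 before and 50 after an annotated start, were read from RefSeq on GRCm38.p6. They cover 7 of the 9 genes in 9 windows; Abcc3 and Slc22a7 have none in the table used. The windows of Abcb11 and of 3 uptake carriers are shown because these genes went opposite ways in the knockout at 12 months. Capitals mark the nuclear receptor half-site AGGTCA or, on the other strand, TGACCT, and the letters TATAAA or, on the other strand, TTTATA. Each window runs 5′ to 3′ along its gene.
Abcb11, chr2:69342567-69342866, minus strand: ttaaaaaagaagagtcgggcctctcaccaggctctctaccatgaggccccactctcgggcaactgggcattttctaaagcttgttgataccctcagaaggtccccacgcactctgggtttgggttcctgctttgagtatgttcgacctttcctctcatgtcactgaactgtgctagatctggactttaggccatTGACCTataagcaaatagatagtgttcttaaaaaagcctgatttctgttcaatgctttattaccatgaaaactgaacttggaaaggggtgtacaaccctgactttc
Slc10a1, chr12:80968030-80968329, minus strand, from the second of its annotated starts: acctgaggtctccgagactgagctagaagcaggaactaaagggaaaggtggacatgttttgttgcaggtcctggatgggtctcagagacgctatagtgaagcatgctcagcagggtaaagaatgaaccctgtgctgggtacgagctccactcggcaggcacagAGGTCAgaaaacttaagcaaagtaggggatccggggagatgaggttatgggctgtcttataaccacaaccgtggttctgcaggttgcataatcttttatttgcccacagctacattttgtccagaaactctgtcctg
Slco1a1, chr6:141946913-141947212, minus strand: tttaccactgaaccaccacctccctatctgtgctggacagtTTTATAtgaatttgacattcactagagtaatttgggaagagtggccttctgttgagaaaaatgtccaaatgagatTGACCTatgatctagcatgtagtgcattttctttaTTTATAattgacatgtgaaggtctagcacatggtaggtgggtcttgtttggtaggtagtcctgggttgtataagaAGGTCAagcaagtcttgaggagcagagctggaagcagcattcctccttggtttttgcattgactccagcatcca
Slco1b2, chr6:141629268-141629567, plus strand: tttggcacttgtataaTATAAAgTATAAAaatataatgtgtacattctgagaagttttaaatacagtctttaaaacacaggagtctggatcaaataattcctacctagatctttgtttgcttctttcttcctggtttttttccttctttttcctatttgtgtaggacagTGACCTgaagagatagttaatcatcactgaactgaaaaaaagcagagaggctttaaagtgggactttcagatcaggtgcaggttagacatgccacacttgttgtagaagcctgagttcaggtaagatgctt
The half-site was searched on both strands and stood in 5 of the 9 member windows, against 16.3% of all 32851 windows in the table. Counting back from the annotated start, it lay at -56 to -51 in Abcb11, -87 to -82 in Slc10a1, -81 to -76 in Slco1b2 and -49 to -44 in Abcc2. Slco1a1 held it at -134 to -129 and at -24 to -19. So both the pump that rose and the 3 carriers that fell hold this short motif in a window, as does Abcc2, which was not called. The window at the other annotated start of Slc10a1, not printed, does not hold it. TATAAA stood in 5 of the 9 member windows, against 13.6% of all windows. Longer motifs were searched in the same way: AGGTCA and TGACCT with 1 free base between (0.00913% of all windows), AGGTCA and a second AGGTCA with 4 free bases between (0.0152%), and GTTAAT and ATTAAC with 1 free base between (0.00913%). These were in none of the 9, which says only that these exact letters are not there. The half-site is part of both repeats, and a match is a description of the sequence, not a binding site.

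Abcg5 and Abcg8 are transcribed away from each other, and their shared stretch is shown because the members of this pair are compared below. Their annotated starts lie 110 bases apart, at 84683011 and 84683121 of chromosome 17.
Abcg5 and Abcg8, chr17:84682962-84683170, plus strand, as read along Abcg8: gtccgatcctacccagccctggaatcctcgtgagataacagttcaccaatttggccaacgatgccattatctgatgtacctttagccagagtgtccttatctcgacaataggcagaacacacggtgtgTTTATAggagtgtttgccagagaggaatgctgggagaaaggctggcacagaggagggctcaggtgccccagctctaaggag
A single TATAAA lies in this stretch, counted at -84 to -79 from the Abcg5 start and, on the other strand, at -31 to -26 from the Abcg8 start. The window at the other annotated start of Abcg8 holds none of the motifs searched.

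Each value is a MAS 5.0 signal, a brightness on a linear scale for 1 probe set on 1 array, printed as deposited. Levels of different genes cannot be compared with each other on this scale. Fold changes are log2 values from a limma fit to log2(signal + 16), knockout minus heterozygous or 12 minus 3 months, with a standard error (SE). A probe set was called when limma's Benjamini-Hochberg adjusted p over all 12976 tested probe sets was under 0.05. The 3 mice per group limit the precision of every value.

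Facts of the whole series that touch these values are as follows. Every array correlated best with an array of its own group (12 of 12; r within groups 0.938 to 0.969 across probe sets). Abcb4 averaged 321 ± 56.8 in KO_3M and 723 ± 43.0 in Het_3M, and 290 ± 44.5 in KO_12M and 623 ± 45.8 in Het_12M (SD, n = 3 each). Its log2 changes were -1.15 and -1.07 (adjusted p = 6.39e-05 and 0.000167), and whether its probe set lies in the deleted part is not known. Scan times place the arrays in 3 sessions. Knockout and heterozygous mice of the same age never shared a session, so genotype and session are closely tied. One array of KO_3M and 1 of Het_3M have a source label of 12 months, against 3 months in the title, the age field and the array description, which were followed. The actin 3' to 5' ratio, a sign of RNA quality, averaged 4.9 in KO_3M, 7.0 in Het_3M, 2.8 in KO_12M and 3.6 in Het_12M.

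Marker genes checked the tissue and its other cells, with 1 probe set per gene. Of all tested genes, 9.63% rose and 11.9% fell at 3 months, and 6.02% rose and 4.08% fell at 12 months. All 12 hepatocyte markers were tested; 1 rose and 1 fell at 3 months, and 0 rose and 1 fell at 12 months. Their summed signal ranged from 67135 to 77283 in KO_3M and 70162 to 75960 in Het_3M, and from 42103 to 66462 in KO_12M and 64737 to 72939 in Het_12M. Of 5 tested cholangiocyte markers, 5 rose at 3 months and 3 at 12 months, with sums of 6019 to 6891 in KO_3M and 2610 to 2780 in Het_3M, and of 4506 to 6483 in KO_12M and 2213 to 3337 in Het_12M; Krt7, Krt19, Sox9, Cldn7 and Cftr did not pass the filter. Of 10 tested stellate cell and fibroblast markers 7 rose at each age, with sums of 3133 to 3949 in KO_3M and 1305 to 1482 in Het_3M, and of 2916 to 3477 in KO_12M and 1265 to 1754 in Het_12M. Of 10 tested macrophage markers 9 rose and 1 fell at 3 months and 7 rose at 12 months, with sums of 3952 to 6267 in KO_3M and 1913 to 2007 in Het_3M, and of 4106 to 4927 in KO_12M and 2022 to 2256 in Het_12M. No marker of these 4 lists lay below the 10th percentile of its array on all 12 arrays. Of the tested endothelial (6), T and natural killer (2), B and plasma (3) and neutrophil (4) markers, none rose at either age. At 3 months 1 marker fell in each of these lists but the neutrophil one. Neutrophil sums were 225 to 294 in KO_3M and 331 to 361 in Het_3M, and 300 to 500 in KO_12M and 325 to 367 in Het_12M. The part of these shifts in the transporter results was not tested. In whole liver, fewer hepatocytes and less RNA per hepatocyte cannot be told apart.

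Of the 8 tested probe sets of uptake carriers, 4 fell in the knockout at 3 months, and no export pump was called at that age. Of all 13 tested transporter probe sets, 0 rose, 4 fell and 9 did not pass, where 9.55% of all tested probe sets rose and 11.6% fell. The 4 that fell were those of Slc22a7, Slc10a1 (1 of 2) and Slco1a1 (both). The median log2 change of the 13 was -0.31, beside -0.06 for all tested probe sets. At 12 months 1 rose, 7 fell and 5 did not pass, where 5.86% of all tested rose and 3.6% fell, and the median was -0.66, beside -0.00 for all. Abcb11 was the one that rose, and the 7 belong to Slc22a7, Slc10a1, Slco1a1, Slco1b2 and Abcg8. The groups did not overlap for 4 probe sets at 3 months, all lower in the knockout (23.2% of all tested), and for 9 at 12 months, 8 of them lower (12.9%) and 1 higher (14.7%). Of the 13, 12 reached their array's median on all 12 arrays, and the other, a Slco1b2 probe set, on 6.

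**Figure D1:**
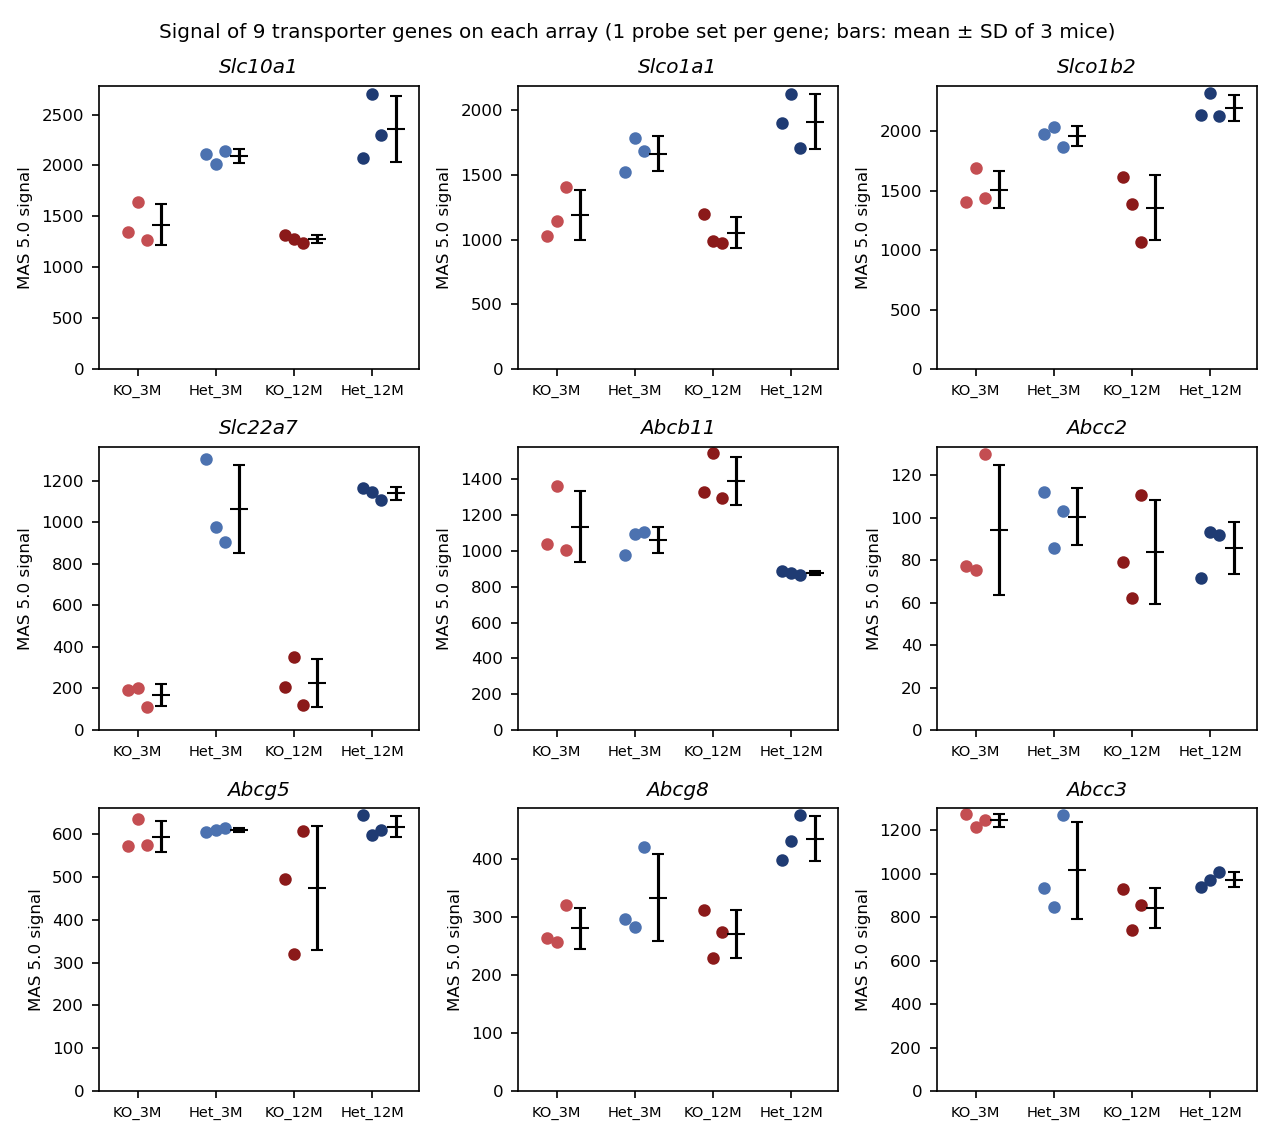
MAS 5.0 signal (vertical axis, linear from 0) of 1 probe set for each of the 9 transporter genes on each of the 12 arrays, by group; points are mice and the cross with bars is the mean ± SD of 3. Slc22a7 lies between 109.5 and 349.1 in every knockout mouse and between 904.8 and 1301.9 in every heterozygous mouse, and Abcb11 is highest in KO_12M.

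Among the uptake carriers, the largest change was that of Slc22a7 (1451460_a_at), a carrier of the blood-facing membrane that takes up small organic anions. Its signal was 194.9, 200.3 and 109.5 in the KO_3M mice, against 1301.9, 978.9 and 904.8 in the Het_3M mice. At 12 months it was 206.7, 349.1 and 121.1 in KO_12M and 1165.8, 1146.2 and 1104.2 in Het_12M. All 6 knockout livers lay far below all 6 heterozygous livers, and the ages overlapped within each genotype. The knockout mean was 15.8% of the heterozygous mean at 3 months and 19.8% at 12 months. Slc22a7 fell at both ages, with log2 changes of -2.57 ± 0.27 at 3 months (adjusted p = 1.39e-05) and -2.37 ± 0.27 at 12 months (adjusted p = 4.23e-05). The difference between these effects was 0.20 ± 0.39 and was not called (adjusted p = 0.848; 95% interval -0.62 to 1.03). Both calls stood with any 1 array left out, the fall ranging from -2.71 to -2.32 at 3 months and from -2.72 to -2.02 at 12 months.

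Slc10a1 (NTCP) is the sodium-dependent carrier that brings conjugated bile salts back from the blood into the hepatocyte. Its brighter probe set (1424898_at) read 1345.7, 1643.9 and 1269.4 in KO_3M, against 2114.6, 2010.8 and 2143.3 in Het_3M. At 12 months it read 1320.3, 1274.3 and 1237.4 in KO_12M, against 2069.3, 2705.8 and 2299.1 in Het_12M. No knockout liver reached the lowest heterozygous one at either age, and the KO_12M mice lay close together. The knockout mean was 67.9% of the heterozygous mean at 3 months and 54.2% at 12 months. Slc10a1 fell at both ages, with log2 changes of -0.56 ± 0.13 at 3 months (adjusted p = 0.00654) and -0.87 ± 0.13 at 12 months (adjusted p = 0.000405). The call at 3 months was lost without both arrays with 2 ages in their labels (-0.52, adjusted p = 0.0594).

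The second Slc10a1 probe set (1450261_a_at) was less clear at the younger age. It read 699.1, 1147.1 and 909.3 in KO_3M and 1180.2, 952.2 and 1239.5 in Het_3M, which overlapped. It read 973.9, 992.1 and 835.5 in KO_12M and 1763.2, 1845.1 and 1485.0 in Het_12M, which did not overlap. Its change was -0.31 ± 0.17 at 3 months (adjusted p = 0.201, not called) and -0.85 ± 0.17 at 12 months (adjusted p = 0.00342). Both probe sets of the gene thus fell at 12 months, and 1 of the 2 at 3 months. With the actin ratio as a covariate, the second probe set was called at 3 months too (-0.63, adjusted p = 0.0104).

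Slco1a1 imports a wide range of organic anions without sodium and is known for its high level in male mouse liver. Its brighter probe set had the same order of groups as the brighter one of Slc10a1. Its brighter probe set (1420379_at) read 1025.5, 1141.2 and 1405.5 in KO_3M, against 1521.3, 1785.7 and 1686.0 in Het_3M. It read 1196.0, 991.3 and 976.3 in KO_12M, against 1901.0, 2127.4 and 1705.8 in Het_12M. The genotypes did not overlap at either age, although the highest KO_3M mouse came close to the lowest Het_3M mouse. The knockout mean was 71.5% of the heterozygous mean at 3 months and 55.2% at 12 months. Slco1a1 fell at both ages, by log2 values of -0.49 ± 0.14 at 3 months (adjusted p = 0.0222) and -0.85 ± 0.14 at 12 months (adjusted p = 0.000963). At 3 months the call was lost without Het_3M mouse 2, Het_3M mouse 3, KO_3M mouse 1 or KO_3M mouse 2, at adjusted p of up to 0.089, while the change stayed between -0.61 and -0.39. It was also lost with the actin ratio as a covariate (-0.50, adjusted p = 0.0716). At 12 months it held with any array left out.

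The dimmer Slco1a1 probe set (1449844_at) read 274.8, 515.5 and 255.7 in KO_3M and 556.5, 622.8 and 434.2 in Het_3M. It read 538.0, 462.9 and 454.8 in KO_12M and 1090.5, 753.3 and 718.5 in Het_12M. The genotypes overlapped at 3 months through KO_3M mouse 2 and Het_3M mouse 3, and did not overlap at 12 months. It fell as well, by -0.66 ± 0.22 at 3 months (adjusted p = 0.0473) and -0.77 ± 0.22 at 12 months (adjusted p = 0.0384) on the log2 scale. These calls lie near the threshold: that at 3 months was lost without any of 9 arrays, also arrays of 12 months, and that at 12 months without Het_12M mouse 1 or 2 or any KO_12M mouse, at adjusted p of up to 0.176 and 0.169.

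Slco1b2, the main mouse liver member of its carrier branch, imports organic anions, unconjugated bile acids and many drugs. Its brightest probe set (1449394_at) read 1406.7, 1689.2 and 1435.8 in KO_3M, against 1976.8, 2040.1 and 1869.5 in Het_3M. It read 1617.9, 1386.1 and 1072.9 in KO_12M, against 2142.5, 2320.4 and 2130.6 in Het_12M. The genotypes did not overlap at either age, and all 3 Het_12M mice also lay above all 3 Het_3M mice. The knockout mean was 77.0% of the heterozygous mean at 3 months and 61.8% at 12 months. The change of -0.38 ± 0.14 at 3 months missed the threshold (adjusted p = 0.0671), and was called without KO_12M mouse 1 or KO_12M mouse 3 (adjusted p = 0.0481 and 0.0249). At 12 months Slco1b2 fell by 0.71 ± 0.14 (adjusted p = 0.00409).

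The other 4 Slco1b2 probe sets are dimmer, and the 2 of them that were tested gave no call in the main fit. One of them (1452494_s_at) ranged from 488.7 to 920.7 in KO_3M and 641.5 to 980.6 in Het_3M, and from 726.0 to 1015.4 in KO_12M and 885.5 to 1729.2 in Het_12M. Its change was -0.13 ± 0.25 at 3 months and -0.56 ± 0.25 at 12 months (adjusted p = 0.749 and 0.196). Another (1427825_at) changed by -0.43 ± 0.24 and -0.40 ± 0.24 (adjusted p = 0.21 and 0.34). Both of these overlapped between the genotypes at both ages and had negative values like the brightest probe set. The 2 probe sets that did not pass the filter averaged at most 77.4 in any group. Of these, 1427826_a_at averaged 46.3 ± 7.04 in KO_12M and 77.4 ± 36.7 in Het_12M (SD, n = 3), and 1452569_at averaged 32.6 ± 22.0 in KO_12M and 5.87 ± 1.94 in Het_12M, so their order differed.

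**Figure D2:**
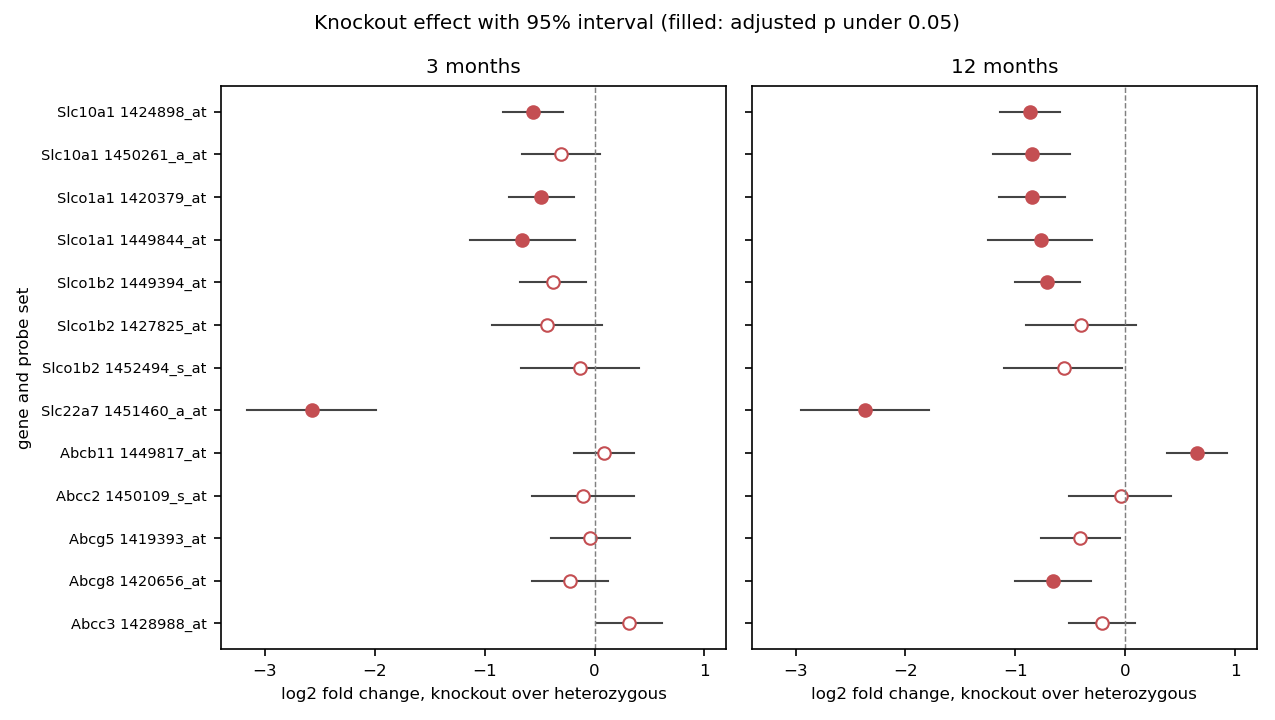
Log2 fold change (horizontal axis), knockout over heterozygous, of the 13 tested transporter probe sets at 3 and at 12 months; bars are 95% intervals and filled points have an adjusted p under 0.05. Slc22a7 stands at -2.57 and -2.37, the other uptake carriers lie between -0.87 and -0.13, and Abcb11 stands at 0.09 and 0.65.

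On the export side, Abcb11 (1449817_at), the bile salt export pump and the main exit of bile salts into the canaliculus, was higher in the knockout at 12 months. Its signal was 1038.8, 1361.1 and 1007.0 in KO_3M, against 979.6, 1094.7 and 1106.7 in Het_3M. At 12 months it was 1331.2, 1545.7 and 1297.7 in KO_12M, against 886.9, 877.8 and 864.9 in Het_12M. The genotypes overlapped at 3 months, where KO_3M mouse 2 was the highest, and were well apart at 12 months. The knockout mean was 107% of the heterozygous mean at 3 months and 159% at 12 months. Abcb11 rose by 0.65 ± 0.13 at 12 months (adjusted p = 0.00419), also with any 1 array left out (0.58 to 0.70), and its value at 3 months was 0.09 ± 0.13 (adjusted p = 0.683; 95% interval -0.19 to 0.36).

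Neither genotype gave a called age difference for Abcb11. In the knockout the value of 12 minus 3 months was 0.30 ± 0.13 and in the heterozygous mice -0.27 ± 0.13 (adjusted p = 0.15 and 0.319). The knockout value depended on the scaling: it was -0.04 with array medians brought to 1 value and 0.50, called, with quantile normalization (adjusted p = 0.0371). The 3 Het_12M mice nonetheless all lay below the 3 Het_3M mice. The difference between the knockout effects at 12 and 3 months was 0.57 ± 0.18, with an unadjusted p of 0.00743 and an adjusted p of 0.157, and 0.29 with median scaling. A different effect of the knockout at the 2 ages was therefore not shown over the 12976 tests.

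Abcc2 (1450109_s_at), the canalicular pump for bilirubin and glutathione conjugates, was dim and showed no difference that passed the test. It read 77.4, 75.6 and 129.8 in KO_3M and 112.2, 85.8 and 103.4 in Het_3M, and 79.1, 62.4 and 110.6 in KO_12M and 71.4, 93.3 and 92.1 in Het_12M. All 4 groups overlapped. The changes were -0.11 ± 0.22 at 3 months (95% interval -0.57 to 0.36) and -0.04 ± 0.22 at 12 months (-0.51 to 0.42). A fall of about 0.5 at either age is thus within the error, as is a rise of up to 0.36 at 3 months and 0.42 at 12 months.

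Abcg5 and Abcg8 form 1 pump together that moves cholesterol and plant sterols into bile, and neither works alone. Abcg8 (1420656_at) read 263.5, 257.1 and 320.0 in KO_3M and 297.2, 283.6 and 419.9 in Het_3M. It read 311.6, 228.6 and 273.6 in KO_12M, against 398.7, 431.0 and 475.5 in Het_12M. The genotypes overlapped at 3 months and did not at 12 months, where the knockout mean was 62.4% of the heterozygous mean. The change was -0.22 ± 0.16 at 3 months (adjusted p = 0.346), and Abcg8 fell by 0.66 ± 0.16 at 12 months (adjusted p = 0.016). That call was lost without Het_12M mouse 3 (-0.59, adjusted p = 0.0672) or KO_12M mouse 2 (-0.55, adjusted p = 0.0703).

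The partner Abcg5 (1419393_at) read 572.1, 636.0 and 575.1 in KO_3M and 605.2, 610.0 and 613.9 in Het_3M. It read 494.9, 321.3 and 608.0 in KO_12M and 645.0, 598.6 and 609.3 in Het_12M. The 6 heterozygous mice lay within a narrow range while KO_12M spread widely, with mouse 2 lowest and mouse 3 inside the heterozygous range. The change was -0.04 ± 0.17 at 3 months and -0.41 ± 0.17 at 12 months (adjusted p = 0.901 and 0.149). Without KO_12M mouse 3 the value at 12 months was called (-0.61, adjusted p = 0.0296). The values of both genes at 12 months were negative, Abcg8 alone was called, and whether their effects differ from each other was not tested. Across the 12 arrays the log2 signals of the pair had a Pearson r of 0.48, as a description, and their starts lie in the shared stretch printed above.

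Abcc3 (1428988_at) pumps bile salts and glucuronides back into the blood and is known to rise in some forms of cholestasis. It read 1273.7, 1212.4 and 1247.2 in KO_3M, against 931.8, 846.8 and 1269.6 in Het_3M. It read 927.1, 742.5 and 854.7 in KO_12M, against 939.9, 972.6 and 1005.2 in Het_12M. At 3 months 1 heterozygous mouse lay among the knockout mice, whereas at 12 months all 3 knockout mice lay below the heterozygous ones, KO_12M mouse 1 only just. The knockout mean was 122% of the heterozygous mean at 3 months and 86.5% at 12 months. Neither value was called (0.31 ± 0.14, adjusted p = 0.13, and -0.21 ± 0.14, adjusted p = 0.413). Without Het_3M mouse 3 the value at 3 months was 0.48 and was called (adjusted p = 0.0266).

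Age was the other axis of the study, and few transporter values passed its test. In the knockout, 12 minus 3 months gave 0 of 13 probe sets higher and 1 lower, where 5.8% of all tested rose and 3.15% fell. The probe set that fell was that of Abcc3, by 0.56 ± 0.14 (adjusted p = 0.0253), and no KO_12M mouse reached the lowest KO_3M mouse. This call was lost without KO_12M mouse 2 or 3 or KO_3M mouse 1 or 3, at adjusted p of up to 0.0725. It was also lost with quantile normalization (-0.40, adjusted p = 0.102). The difference between the knockout effects at 12 and 3 months was -0.52 ± 0.20 for Abcc3 (unadjusted p = 0.0197, adjusted p = 0.226). Slc22a7 had 0.32 ± 0.27, Slc10a1 -0.14 ± 0.13, Slco1a1 -0.17 ± 0.14 and Slco1b2 -0.17 ± 0.14 in their brightest probe sets, none of them called. Other probe sets had other values: Slco1a1 1449844_at had 0.52 ± 0.22 (adjusted p = 0.141), which was called without KO_3M mouse 2 (0.83, adjusted p = 0.0202). Slc10a1 1450261_a_at had 0.05, Slco1b2 1427825_at 0.36 and Slco1b2 1452494_s_at 0.23, not called.

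In the heterozygous mice 0 of 13 probe sets were called between 12 and 3 months by limma, where 0.717% of all tested rose and 0.432% fell, and 4 had an unadjusted p under 0.05. These 4 all had higher signals at 12 months: Slc10a1 1450261_a_at by 0.59 ± 0.17, Slco1a1 1449844_at by 0.64 ± 0.22, Slco1b2 1452494_s_at by 0.66 ± 0.25 and Abcg8 by 0.39 ± 0.16, with adjusted p of 0.086, 0.164, 0.198 and 0.246. The brightest probe sets of Slc10a1, Slco1a1 and Slco1b2 had smaller values of 0.17 ± 0.13, 0.20 ± 0.14 and 0.16 ± 0.14. With the actin ratio as a covariate the value of Slco1b2 1452494_s_at was -0.04. For the difference of knockout effects 0 of 13 were called, where 0.717% of all tested were, and 3 had an unadjusted p under 0.05, those of Abcb11, Abcc3 and Slc10a1 1450261_a_at (-0.54 ± 0.23, adjusted p = 0.279). The median of this difference over the 13 was -0.33, beside 0.06 for all tested probe sets. The 2 knockout comparisons share no array.

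The order of the 4 groups was the same for the brightest probe sets of Slc10a1, Slco1a1 and Slco1b2 and for Abcg5 and Abcg8: KO_12M lowest, then KO_3M, Het_3M and Het_12M. The other tested probe sets of these 3 carriers had KO_3M lowest, so this order does not hold for all probe sets of the genes. In the brightest probe sets of the 3 carriers KO_12M and KO_3M overlapped and KO_3M and Het_3M did not. Slc22a7 had KO_3M lowest, with the break again between the genotypes. For Abcg8 and Abcg5 every neighbouring pair of groups in the order overlapped. Abcb11 ran from Het_12M, which was separate, through Het_3M and KO_3M to KO_12M, and Abcc3 from KO_12M, also separate from its neighbour Het_12M, through Het_3M to KO_3M.

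The scan session bears on all of these calls. With the session as a block in the fit, 0 of the 13 probe sets were called in any of the 5 comparisons, and over all tested probe sets the calls fell to 415 at 3 months and 91 at 12 months, against 2749 and 1228 without it. The block widens the errors, because the genotypes of 1 age are compared only through arrays of the other age. At 12 months the median of the 13 was -0.64, all 13 kept their sign and 7 had an unadjusted p under 0.05. Slc10a1 stood at -0.82 (adjusted p = 0.176), Slco1a1 at -0.98 (0.117), Abcb11 at 0.54 (0.439) and Abcg8 at -0.88 (0.287). Other values at 12 months were -0.38 for Abcc3, -0.62 for Abcg5, -0.69 for Slco1b2 1427825_at and -0.33 for Slco1b2 1452494_s_at. Slc10a1 1450261_a_at stood at -0.65, Slco1a1 1449844_at at -0.64 and the brightest Slco1b2 probe set at -0.53. Slc22a7 was cut to -1.36 ± 0.40 at 3 months and -1.56 ± 0.40 at 12 months (adjusted p = 0.0767 and 0.0948). At 3 months the brightest Slco1b2 probe set turned to 0.10 ± 0.22 and 1452494_s_at to 0.29, and 11 of 13 kept their sign. Abcg5 moved to -0.63, Abcc2 to -0.59 and Slco1b2 1427825_at to -0.78 at that age, none called. For age in the knockout 8 of 13 kept their sign, and Slc22a7 turned to -0.38. Within the second session, 2 KO_12M arrays could be set beside 2 Het_3M arrays, which differ in genotype and age. In the brightest probe sets Slc22a7 differed by -1.75, Slc10a1 by -0.67, Slco1a1 by -0.66, Slco1b2 by -0.38 and Abcb11 by 0.38, without a test. Other probe sets of these carriers stood at -0.14 (Slc10a1 1450261_a_at), -0.06 (Slco1a1 1449844_at), -0.22 (Slco1b2 1427825_at) and 0.27 (Slco1b2 1452494_s_at).

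**Figure D3:**
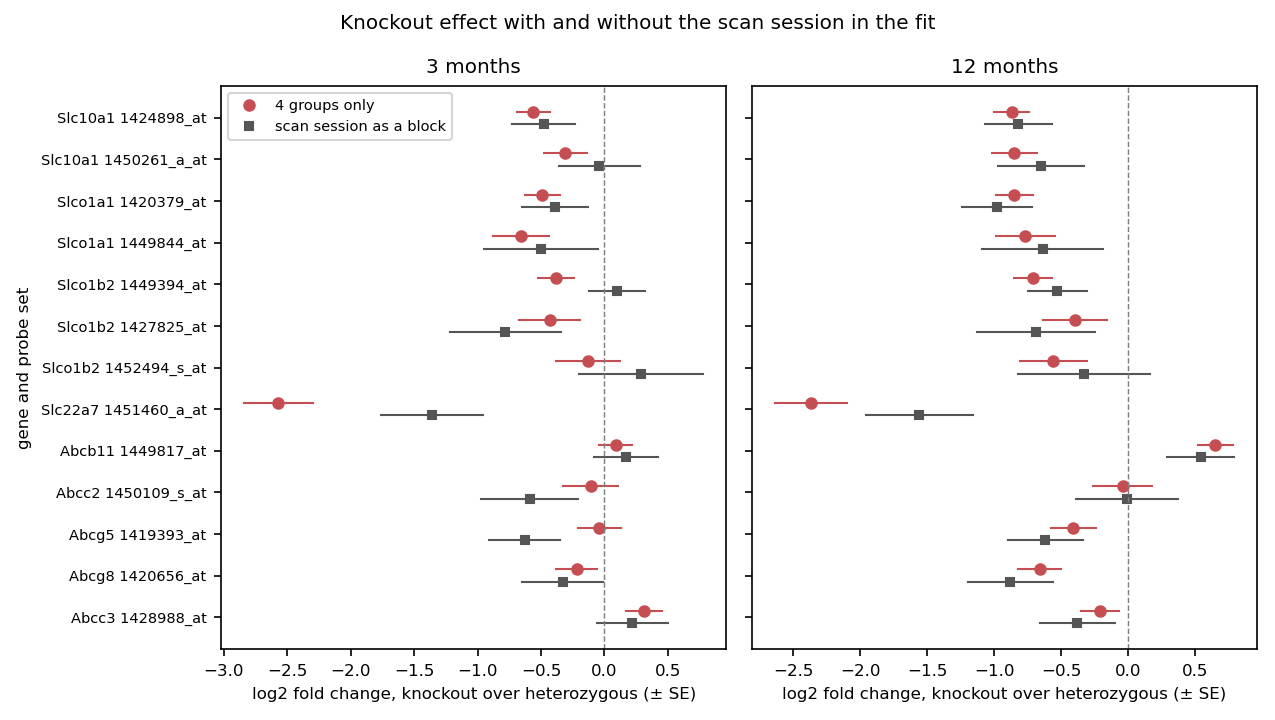
Log2 fold change (horizontal axis, ± SE), knockout over heterozygous, of the 13 tested transporter probe sets from the fit with the 4 groups only (circles) and with the scan session as a block (squares). At 12 months all 13 values keep their sign, with wider errors under the block. Slc22a7 moves to -1.36 at 3 months and -1.56 at 12 months, and Abcg5 moves to -0.63 and -0.62.

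Scaling matters for the 3 months as well. With array medians in place of trimmed means brought to 1 value, the median change of all tested probe sets shifted by 0.17 at 3 months and by -0.08 at 12 months. At 3 months Slc22a7 still fell (-2.40), Slc10a1 (-0.38, adjusted p = 0.109) and both Slco1a1 probe sets (-0.30 and -0.48) were no longer called, and Abcc3 rose (0.49, adjusted p = 0.0368). The share of higher calls among all calls was then 71.5%, against 45.1% with trimmed means. At 12 months all 8 transporter calls stood.

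The 5 lists of related genes, with 1 probe set per gene, place these values among their neighbours in bile formation, where 9.63% of all tested genes rose and 11.9% fell at 3 months and 6.02% rose and 4.08% fell at 12 months. Of 11 tested other export pumps, 1 rose and 1 fell at each age (medians -0.15 and -0.10). The faller was Abcb4 itself. The one that rose was Abcb1a, a pump for drugs and other foreign compounds, with a signal of 56.2 ± 5.29 in KO_3M and 19.5 ± 6.42 in Het_3M, and 75.2 ± 12.0 in KO_12M and 26.5 ± 10.5 in Het_12M (SD, n = 3 each). Every heterozygous signal of Abcb1a lay below its array's median, which was at least 58.2 on these arrays. Abcb1a thus passed the filter on dim signals through knockout arrays only, and its rise is measured from dim heterozygous signals. Its changes were 1.04 ± 0.27 and 1.12 ± 0.27 (adjusted p = 0.0119 and 0.0129). The earlier call was lost without both arrays with 2 ages in their labels (1.07, adjusted p = 0.0594). The later call was lost without Het_12M mouse 3 or KO_12M mouse 3 (adjusted p = 0.0531 and 0.0521).

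Of 12 tested other uptake carriers, 1 rose and 2 fell at 3 months and 0 rose and 2 fell at 12 months (medians -0.02 and -0.00). Slc27a2, a fatty acid carrier and very long chain acyl-CoA synthetase, averaged 2776.0 ± 448 in KO_12M and 4348.4 ± 268 in Het_12M, and fell by 0.65 ± 0.15 (adjusted p = 0.0104). At 3 months it fell by 0.46 ± 0.15 (adjusted p = 0.0403), a call lost without any 1 of 8 arrays. Slc29a1, a nucleoside carrier, fell by 0.65 ± 0.15 at 12 months (adjusted p = 0.011), which was lost without Het_12M mouse 1. At 3 months Slco2a1, a prostaglandin carrier, fell by 0.53 ± 0.16 (adjusted p = 0.0272), lost without Het_3M mouse 1 or 3 or KO_3M mouse 1 or 3. Slc22a18 rose by 0.39 ± 0.13 (adjusted p = 0.0433), lost without any of 8 arrays and at -0.00 in its other probe set.

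Of 10 tested genes of sterol entry and transport inside the cell, 2 rose and 0 fell at 3 months and 1 rose and 1 fell at 12 months (medians 0.14 and -0.07). Npc2, which hands cholesterol over in the lysosome, rose by 0.76 ± 0.12 and 0.52 ± 0.12 at the 2 ages (adjusted p = 0.000572 and 0.0128), the later call lost without Het_12M mouse 1 or KO_12M mouse 2. Its other probe set gave 1.47 and 1.08 (adjusted p = 6.85e-05 and 0.00142). Its lysosomal partner Npc1 had 232 ± 40.1 in KO_12M and 328 ± 14.5 in Het_12M and fell by 0.49 ± 0.14 (adjusted p = 0.0338), lost without any Het_12M mouse or KO_12M mouse 2. Stard5 rose by 0.70 ± 0.18 at 3 months (adjusted p = 0.0124), lost without Het_3M mouse 2 or KO_3M mouse 3, and its other probe sets stood at 0.13 and 0.52, not called.

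Of 15 tested scaffold and trafficking genes of the canalicular membrane, 4 rose at 3 months and 2 at 12 months, and 0 fell (medians 0.11 and 0.02). Ocln, a tight junction protein, averaged 202 ± 52.1 in KO_3M and 88.3 ± 12.3 in Het_3M, and rose by 1.04 ± 0.19 (adjusted p = 0.00117) and, at 12 months, by 0.82 ± 0.19 (adjusted p = 0.0103), lost without KO_12M mouse 1. Msn, which ties membrane proteins to actin and is abundant outside hepatocytes, rose by 0.66 ± 0.15 and 0.61 ± 0.15 (adjusted p = 0.00487 and 0.0131), the later call lost without Het_12M mouse 1 or 2. Rab11a, of recycling endosomes, and Dpp4, a peptidase of the canalicular surface, rose by 0.58 ± 0.12 and 0.53 ± 0.14 at 3 months (adjusted p = 0.00416 and 0.0155), with other probe sets at -0.03 and 0.10. The call of Dpp4 was lost without Het_3M mouse 2 or KO_3M mouse 2. The sums of cholangiocyte, stellate cell and fibroblast, and macrophage markers given above were higher in the knockout at both ages too. Their part in these values was not tested.

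Of 15 tested nuclear receptors and factors, 1 rose and 3 fell at 3 months and 1 rose and 4 fell at 12 months (medians -0.13 and -0.15). Nr1h4, the bile acid receptor whose targets include Abcb11, averaged 280 ± 16.1 in KO_12M and 450 ± 12.9 in Het_12M, and 461 ± 64.2 in KO_3M and 371 ± 41.1 in Het_3M. It fell by 0.66 ± 0.13 at 12 months (adjusted p = 0.00459), with 0.30 ± 0.13 at 3 months (adjusted p = 0.119). Nr0b2 averaged 152 ± 34.6 in KO_3M and 515 ± 153 in Het_3M, and 259 ± 73.5 in KO_12M and 200 ± 62.2 in Het_12M. It fell by 1.64 ± 0.26 at 3 months (adjusted p = 0.000470), with 0.36 ± 0.26 at 12 months (adjusted p = 0.455). For both genes the difference of the knockout effects itself was called (adjusted p = 0.0309 for Nr1h4 and 0.0246 for Nr0b2).

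Of the other factors, Nr1i3 (CAR), a receptor that responds to drugs and bilirubin, changed by -0.57 ± 0.16 and -0.77 ± 0.16 at the 2 ages (adjusted p = 0.0206 and 0.0059), both called, the earlier call lost without mouse 1 or 3 of Het_3M or of KO_3M. Ppara, the receptor for fatty acids, fell by 0.84 ± 0.18 at 12 months (adjusted p = 0.00743). Nfe2l2 (NRF2), the oxidative stress factor known to act on Abcc genes, rose by 0.76 ± 0.17 and 0.58 ± 0.17 (adjusted p = 0.00437 and 0.0359), the later call lost without any of 5 arrays. Hnf4a, a factor of hepatocyte identity that is also among the hepatocyte markers, changed by -0.35 ± 0.12 and -0.39 ± 0.12 (adjusted p = 0.043 and 0.0472). Most leave-one-out fits lost these calls, and its 3 other probe sets did not share them. Those stood at -0.23, -0.48 and -0.18 at 3 months and, with the opposite sign, at 0.10, 0.22 and 0.19 at 12 months. With the session as a block the call of Abcb4 at 3 months was the only one of those named in the 5 lists that stood.

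**Figure D4:**
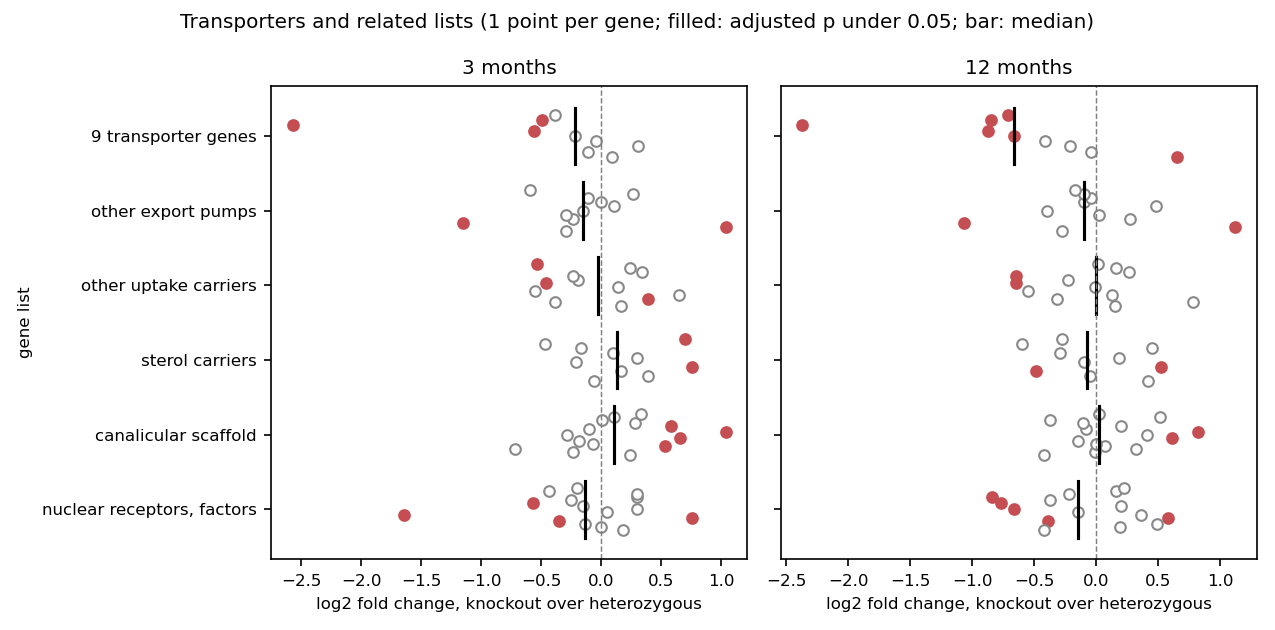
Log2 fold change (horizontal axis), knockout over heterozygous, with 1 point per tested gene for the 9 transporter genes and the 5 related lists at 3 and at 12 months; filled points have an adjusted p under 0.05 and the bar is the list's median. The median of the 9 transporter genes is -0.22 at 3 months and -0.66 at 12 months, and those of the 5 lists lie between -0.15 and 0.14.

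The genes whose log2 signals ran most like each transporter over the 12 arrays were listed by Pearson r, as a description in which group differences and array effects are shared. Slc22a7 ran most like Hsd11b1 (r = 0.977) and Fgf18 (0.969), and Slc10a1 most like Slc19a2 (0.946) and Qdpr (0.944). Slco1b2 ran most like Slc17a2 (0.947) and Napa (0.933), and Slco1a1 most like Upf2 (0.931) and Klf13 (0.928). Abcb11 ran most like Vbp1 (0.924) and Crip2 (0.908), Abcc3 like Slc25a10 (0.907) and Zbtb20 (0.893), and Abcc2 like Rpl27a (0.873) and Ube2d3 (0.863). Abcg5 ran most like Ppp3ca (0.916) and Mtfr1l (0.908), and Abcg8 like Hadha (0.908) and Sardh (0.906). The 4 uptake carriers had r of 0.81 to 0.92 with each other over the 12 arrays, but -0.37 to 0.54 once group means were taken out, so their likeness lies mainly between the groups.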

How the data were processed

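Liver RNA of 12 mice was measured on 12 arrays. The deposited values are intensity values, MAS 5.0 signals on a linear scale, which the authors extracted with MAS 5.0 software, per the labels' design text and the submitters' processing notes. Their trimmed means (2 to 98%) were 150.05 to 150.07, so the arrays had been scaled before deposit; how this was set is not stated in the labels or the array files. Probe sets were named from the platform annotation, updated through gene IDs to RefSeq (GRCm38.p6). Each array was brought to 1 trimmed mean and 16 was added before log2, which shrinks the fold changes of dim probe sets. Probe sets at or above their array's median on at least 3 of 12 arrays were tested (12976), with limma 3.58.1 in R 4.3.3 (lmFit, eBayes with an intensity trend), 4 group means and all arrays in 1 fit, and Benjamini-Hochberg adjustment over all of them. Tables were made with pandas 2.3.3 (Python 3.11.15) and figures with matplotlib 3.10.9. The fit was tested on simulated data.

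The members and lists were chosen with earlier results of these data known. By rule, all members and Abcb4 are named, up to 6 list genes called in a knockout comparison, and the 2 genes most like each member; the probe set of highest mean stands for a gene where 1 is given. Scan sessions were read from gaps of over 35 minutes between scan times. Mouse numbers do not pair the groups: deviations of same-numbered mice from their group means correlated from -0.231 to 0.176 over 18 pairs. Alternatives covered scaling, offset, filters, trend, weights, session, RNA quality, a replicate block, the conflicting ages, fluidics (chosen after seeing the data), a fold rule and each array left out.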

Additional observations from a re-analysis of the deposited data

How the results depend on the processing

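Calls among the 13 transporter probe sets depended on the processing mainly at 3 months and for age. At 3 months 4 were called, and 2 with median scaling, 0 with the session as a block, 1 without both arrays with 2 ages in their labels, 2 without both arrays with a fluidics communication error, 2 without both arrays of the other fluidics script, 1 with a fold of at least 2 added, and 2 to 4 with 1 array left out. At 12 months 8 were called, and 0 with the session as a block, 1 with the fold rule and 6 to 8 with 1 array left out. Single calls changed too. Slco1a1 1449844_at was lost at both ages without a filter and with no intensity trend. At 3 months it was also lost with an offset of 64, array weights and only the 2 groups compared. Slco1b2 1449394_at was gained at 3 months with quantile normalization and only the 2 groups compared. Slco1b2 1452494_s_at was gained at 12 months with the actin covariate. Without the arrays of the other script Abcg8 was lost and Abcg5 gained at 12 months. For age in the knockout 1 was called, and 4 with median scaling. With quantile normalization the call was not of the same probe set: Abcb11 was gained (0.50) and Abcc3 lost (-0.40). Without a filter 2 were called, the second of them a probe set outside the 13. The count was 0 with only the 2 groups compared, 0 with the session as a block and 0 with the actin ratio as a covariate. It was also 0 without the arrays with 2 ages, 0 without those of the other script, 0 with the fold rule and 0 to 2 with 1 array left out. For age in the heterozygous mice 0 were called, 1 without the arrays of the other script and 0 to 0 with 1 array left out. For the difference of knockout effects every alternative run gave 0. The replicate block, with mouse numbers taken as pairs, gave 4, 8, 1, 0 and 0 in these 5 comparisons and changed no transporter call there. Sign changes were listed for both knockout comparisons and for those age values and differences of effects with an unadjusted p under 0.05; all were of uncalled values. At 3 months they were Abcb11 (-0.06 with the actin covariate; -0.05 to 0.17 with 1 array left out), Abcc2 (0.05 with median scaling, 0.02 with the actin covariate, 0.07 without the arrays with 2 ages; -0.33 to 0.01 with 1 array left out), Abcg5 (0.15 with median scaling), Slco1b2 1449394_at (0.10 with the session) and Slco1b2 1452494_s_at (0.05 with median scaling, 0.29 with the session, 0.19 without the arrays with 2 ages, 0.16 without those of the other script; -0.30 to 0.16 with 1 array left out). The others were Abcc2 at 12 months (0.05 with the actin covariate; -0.23 to 0.12 with 1 array left out), Abcb11 for age in the knockout (-0.04 with median scaling) and Slco1b2 1452494_s_at for age in the heterozygous mice (-0.04 with the actin covariate). Their cause was not tested. Among the remaining age values and differences of effects, more turned: with the session as a block 8 of 13 kept their sign for age in the knockout, 11 for age in the heterozygous mice and 11 for the difference. Slc22a7 turned in all 3, to -0.38, -0.19 and -0.19. With the actin covariate the 4 calls at 3 months are not the same probe sets: Slc10a1 1450261_a_at was gained (-0.63) and Slco1a1 1420379_at lost (-0.50). Over all tested probe sets, median scaling shifted the median by -0.30 for age in the knockout and by -0.24 for the difference of knockout effects, and the share of higher calls was 49.6% at 12 months, against 62% in the main setting, 10.8% against 64.8% for age in the knockout and 11.9% against 54.8% for the difference; quantile normalization gave 51.7% and 424 calls against 1161 for age in the knockout. Median scaling gave 2660 calls for age in the knockout and 260 against 93 for the difference.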
